A study of Mus musculus with 61 samples.

Results

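Retinal cells of D2-Gpnmb+ mice were compared between 4 and 9 months of age by RNA sequencing. D2-Gpnmb+ mice carry a functional Gpnmb allele on the DBA/2J background, and they do not develop the pigment-dispersing glaucoma of DBA/2J mice, in which Gpnmb is mutated. The comparison was therefore meant to show how cells sorted in the same way differ with age in the control strain. Of the 61 libraries of the series, 19 belonged to it, namely 10 of D2-Gpnmb+ mice at 4 months and 9 of D2-Gpnmb+ mice at 9 months, all on plain water. They were chosen by the column names of the deposited table. The comparison was repeated with only the 9-month libraries numbered 13, 14 and 15, which stand in the same stretch of columns as all of the 4-month libraries. The other 9-month libraries stand elsewhere, so age and stretch are partly mixed in the comparison of all 9. DBA/2J mice on water had 10 libraries at 4 months and 25 at 9 months. They were used to test whether the age difference was particular to a strain, and for levels by stretch. Nicotinamide-treated animals were not used here. Per the labels' protocols, retinas were dissociated with an enzyme and sorted for Thy1.2-positive cells without GFAP, Cd45.2, Cd34, Cd11c or Cd11b on staining, and the optic nerve of every eye was free of detectable axon damage. Nothing in the labels states that each library is a different animal. The p-values thus reflect only how far these libraries vary, which may in part be technical.

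Retinal ganglion cells are the output neurons of the retina, and their axons form the optic nerve. Thy1 is the surface protein commonly used to purify them. Rods and cones detect light, bipolar cells carry their signal inward, amacrine and horizontal cells modulate it with GABA and glycine, and Müller glia span the whole retina, take up transmitter and support the neurons. In ageing nervous tissue, glial, complement and interferon genes and genes of synapses and mitochondria are commonly followed, and gene lists of these kinds were used here.

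Reads per library ran from 7062913 to 11309143 at 4 months and from 7284988 to 14961078 at 9 months. Values are on the deposited scale, in which reads are divided by a TMM-like library size. The deposited values of a library therefore do not add up to a common total, as counts per library total (CPM) would. The labels call the sorted cells retinal ganglion cells, and this was checked against marker genes. Per kilobase of exon, the median of the 16 measured ganglion cell markers lay between 0.185 and 1.43 in the 19 libraries. On the same scale the median of the 14 bipolar cell markers lay between 56.6 and 117, that of the 16 rod markers between 6.62 and 134 and that of the 13 Müller glia markers between 9.47 and 163. RNA of bipolar cells, photoreceptors and Müller glia was thus present in every library, and the cells are called sorted Thy1.2-positive cells below. The median per kilobase of the 14 microglia and macrophage markers was at most 0.624. In 2 of the 9-month libraries it ran from 0.264 to 0.624, beside 0.509 to 1.43 for ganglion cell markers. In every other library it was at most 0.089. The median of the 12 vessel and mural cell markers lay between 0.495 and 15.9 in the 19 libraries. The ranges of both lists thus overlapped with that of the ganglion cell markers. In bulk samples such as these, fewer cells of a type and less RNA per cell cannot be told apart.

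The 9-month libraries did not form 1 uniform group. In the deposited table they occupy 3 separate stretches of columns, namely the libraries numbered 1, 4, 5 and 6 (first 4), those numbered 8 and 9 (second 2) and those numbered 13, 14 and 15 (last 3). What the stretches stand for is not given in the sources used here, and the stretches were set apart with the values already known. All 10 libraries of 4 months stand with the last 3. Mitochondrially encoded mRNA made up 1.07 to 2.05% of the reads in the first 4, 5.99 to 6.61% in the second 2, 5.14 to 11.2% in the last 3 and 4.46 to 11.4% at 4 months. Ribosomal RNA (mt-Rnr1, mt-Rnr2 and Rn45s together) made up 11.2 to 19.5% in the first 4 and 23.5 to 48.2% at 4 months. The first 4 thus lay below every 4-month library in both shares. Over all 9 libraries the share of ribosomal RNA was 23.1% ± 10.5 (SD, n = 9) against 35.0% ± 9.40 (SD, n = 10), with an exact two-sided permutation p of 0.0197, which was 0.173 after Benjamini-Hochberg adjustment over the 10 tests of library measures. For the last 3 it was 33.7% ± 9.83 (SD, n = 3), and the exact permutation p was 0.853.

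**Figure D1:**
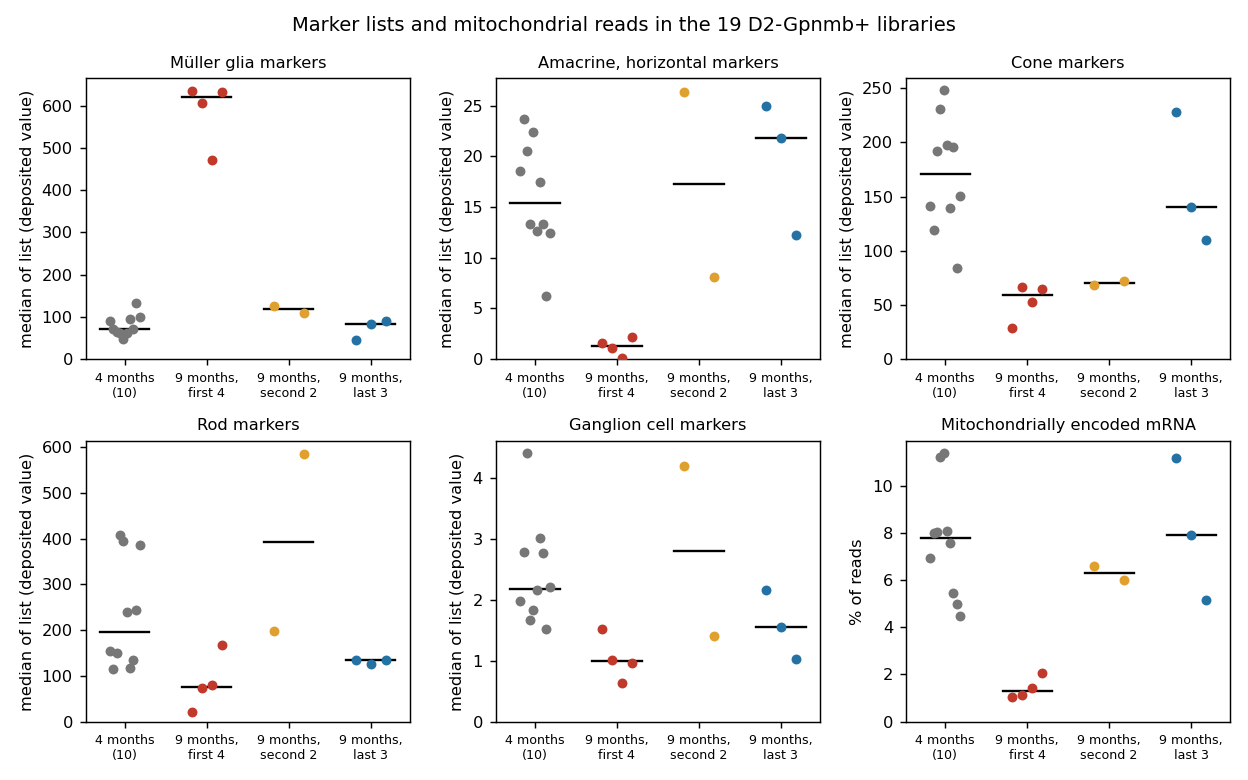
Levels in the 19 D2-Gpnmb+ libraries, 1 point per library and a bar at the median of each set. The first 5 panels show the median deposited value of a marker list and the last the share of reads from mitochondrially encoded mRNA. The first 4 libraries of 9 months stand above all others for Müller glia markers and below all others for amacrine and horizontal cell markers and for mitochondrial mRNA.

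Single libraries also stood out by individual genes. Gpnmb, the transmembrane glycoprotein that separates the strains, was at 34.7 to 129.6 in the 4-month libraries with a median of 93.2. At 9 months it was 11.9 in library 1 and 38.9 to 83.5 in the other 8. The age difference of Gpnmb was a log2 fold change of -0.71 over 9 libraries and -0.09 over the last 3, and it did not pass the test in either comparison. Xist, the RNA that coats the silenced X chromosome of female cells, was 7.93 in library 8 of 9 months and 4522 or more in each of the other 18 libraries. Library 8 thus differed from the rest in Xist, while the labels do not give the sex of single libraries.

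Across all 9 libraries, the sorted cells of 9-month D2-Gpnmb+ mice held less Adcy1 mRNA than those of 4-month mice. Adcy1 encodes the calcium-stimulated adenylyl cyclase of neurons, which makes cyclic AMP. Its values at 4 months were 215.4, 244.9, 239.3, 226.2, 268.8, 244.8, 215.7, 284.2, 294.0 and 260.0. At 9 months they were 77.0, 85.8, 167.1 and 142.6 in the first 4, 138.6 and 158.1 in the second 2, and 160.3, 166.6 and 171.0 in the last 3. All 9 values lay below the lowest 4-month value, so that the age groups did not overlap in any set. Adcy1 fell by 0.86 ± 0.15 (SE) on the log2 scale, with an adjusted p of 0.0382 (limma, Benjamini-Hochberg over all genes). The gene lies on chromosome 11 at 7063489 to 7178506 on the plus strand (GRCm38, GENCODE vM21).

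Adcy1 was 1 of 3 genes past the threshold of 0.05 among 12910 tested, which is 0.0232% of them, with 2 lower (0.0155%) and 1 higher (0.00775%). The second was Gm5136, a predicted protein-coding gene on chromosome 10 (108698764 to 108700160), with a change of -1.54 ± 0.27 (SE) and an adjusted p of 0.0382. Its values were 1.93 to 9.28 at 4 months with a median of 4.27, and 0 to 0.591 in the first 4, 1.95 and 0.544 in the second 2 and 1.38, 0.814 and 2.69 in the last 3. The third was 2810047C21Rik1, annotated as a transcribed pseudogene on chromosome 7 (8086326 to 8093041), with a change of 0.98 ± 0.17 (SE) and the same adjusted p. It was 5.91 to 12.19 at 4 months and 12.02 to 22.9 at 9 months. The 4- and 9-month values of both overlapped in a few libraries.

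An adjusted p of 0.0382 rested on the whole set of libraries. The number of genes past the threshold was 0 without library 1, 4, 5, 6 or 8 of 9 months, and 1010, 2069, 1065 and 1208 without library 9, 13, 14 or 15. It was also 0 without any single 4-month library from 1 to 8, and 2 or 4 without library 9 or 10. Leaving out 1 library at a time kept the change of Adcy1 between -0.90 and -0.76, with adjusted p between 0.0180 and 0.107. Without the first 4 libraries, Adcy1 was the only gene past the threshold (-0.64, adjusted p = 0.0128 with limma). On CPM of the library total, which moved the median of all genes by 0.312, no gene passed, 4634 genes had an unadjusted p under 0.05, and Adcy1 stood at -0.51 with an adjusted p of 0.0621.

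The tools differed in how many genes they called in the comparison of 9 with 10 libraries. At an unadjusted p under 0.05 limma had 3917 of 12910 genes (30.3%), and 3 after adjustment. The quasi-likelihood test of edgeR on the recovered reads called 1495 genes (11.6%), 1322 of them higher (10.2%) and 173 lower (1.34%) at 9 months. DESeq2 called 2114, of which 1723 were higher (13.3%) and 391 lower (3.03%). The share of genes called higher thus depended on the tool, and the results of the next paragraphs are given per set of libraries for that reason.

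Besides Adcy1, the values of Pcdhb9 and Eci2 did not overlap between 9 and 10 libraries, which makes 3 genes or 0.0232% of those tested. Pcdhb9, a clustered protocadherin of neuronal cell surfaces, was 10.4 to 15.1 at 4 months (median 10.9) and 2.37 to 8.80 at 9 months (median 5.51). Eci2, an enoyl-CoA isomerase of fatty acid oxidation, was 3.01 to 7.46 at 4 months and 7.92 to 22.8 at 9 months. Their changes were -0.90 for Pcdhb9 and 1.09 for Eci2, each with an adjusted p of 0.0741 (limma), so neither passed. In the last 3 libraries alone the changes were -0.89 and 0.67 and did not pass either.

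**Figure D2:**
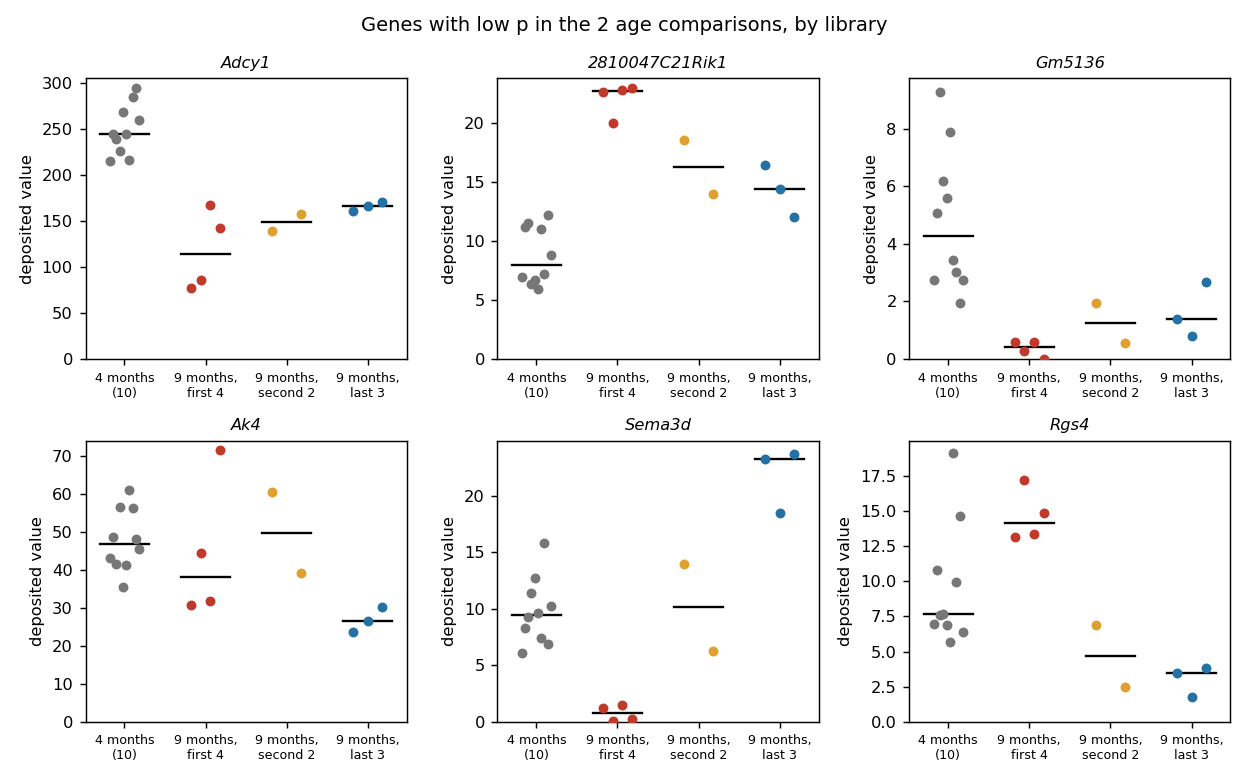
Deposited values of 6 genes in the 19 D2-Gpnmb+ libraries, 1 point per library and a bar at the median of each set. All 9-month values of Adcy1 lie below the lowest 4-month value of 215.4, while Ak4, Sema3d and Rgs4 separate the last 3 libraries from 4 months. In the first 4, Ak4 and Rgs4 overlap with 4 months and Sema3d lies below it.

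With only the last 3 libraries at 9 months, no gene of 13689 tested passed the threshold with limma (0.0%), and none with edgeR. At an unadjusted p under 0.05 limma had 640 genes, or 4.68% of those tested, 335 higher (2.45%) and 305 lower (2.23%). DESeq2 called 6 genes (0.0438%), which were Adcy1, Ak4, Sema3d, Rgs4, Map7d1 and Pygo1. The values of 134 genes (0.979%) did not overlap between the 3 and the 10 libraries, 73 higher (0.533%) and 61 lower (0.446%) at 9 months. The 95% interval of the log2 fold change had a median half-width of 0.489, and for 86.0% of the genes it lay wholly between -1 and 1. For those genes a change of 1 or more in either direction, on the fitted scale of log2 of the value plus 1, lay outside the interval. That scale understates changes of low genes, so for these a larger fold change in reads is not excluded.

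Ak4 encodes a mitochondrial adenylate kinase, which exchanges phosphate between nucleotides. It was 35.5 to 61.05 at 4 months with a median of 46.8, and 23.6, 26.4 and 30.3 in the last 3 libraries. The change was -0.80 ± 0.16 (SE), with a 95% interval from -1.13 to -0.47 and an adjusted p of 0.334 (limma), against 0.00555 with DESeq2. In the other 6 libraries of 9 months Ak4 ran from 30.9 to 71.5, which overlapped with the 4-month values.

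Sema3d encodes a secreted semaphorin that guides axons. Its values were 6.09 to 15.8 at 4 months with a median of 9.46, and 23.3, 18.4 and 23.6 in the last 3, with a change of 1.12 ± 0.23 (SE) and an adjusted p of 0.334 (limma). In the first 4 libraries it was 1.23, 0.0727, 1.48 and 0.226, below all 4-month values, and in the second 2 it was 13.97 and 6.30. The last 3 and the first 4 thus stood on opposite sides of the 4-month libraries for this gene.

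Rgs4, a brake on G-protein signalling, was 5.71 to 19.1 at 4 months and 3.45, 1.76 and 3.84 in the last 3 libraries. The change was -1.35 ± 0.30 (SE), with an interval from -1.96 to -0.74 and an adjusted p of 0.468 (limma). In the first 4 it was 13.2 to 17.2, within the 4-month range. Map7d1, a microtubule-associated protein, was 14.1 to 16.7 in the last 3 and 19.2 to 31.2 at 4 months, with -0.77 and an adjusted p of 0.045 by DESeq2. Pygo1, a co-activator of Wnt signalling, was 20.97 to 23.7 and 10.9 to 16.9, with 0.74 and an adjusted p of 0.0453 by DESeq2. Adcy1 in this smaller comparison stood at -0.58 ± 0.12 (SE), with an interval from -0.82 to -0.33 and an adjusted p of 0.334 (limma). These genes were named after their values had been seen.

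The gene lists gave the same split between the sets of libraries. Of 36 lists, 12 of cell type markers and 24 of pathways, no member passed the limma test in the comparison of 9 with 10 libraries or of 3 with 10. All comparisons with 4 months share the same 10 libraries, and their values are given side by side. Over 9 libraries the median log2 fold change was 1.19 for the 13 Müller glia markers and 0.54 for the 12 vessel and mural cell markers, beside -0.00 over all genes. It was -1.07 for the 10 cone markers, -0.97 for the 10 amacrine and horizontal cell markers tested, -0.76 for the 16 rod markers and -1.79 for the 13 mitochondrially encoded subunits. Without the first 4 libraries, an alternative that was not planned, the medians were 0.06 for Müller glia, -0.34 for vessel and mural cells, -0.35 for cones, 0.12 for amacrine and horizontal cells, -0.09 for rods and -0.35 for mitochondrially encoded subunits. Vessel and mural cell markers and amacrine and horizontal cell markers thus changed sign, and the other 4 medians lay nearer to 0. With edgeR and all 9 libraries, 13 of 13 Müller glia markers and 8 of 14 tested interferon and MHC class I genes were called higher, where 10.2% of all genes were.

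In the last 3 libraries the same lists stood close to the 4-month libraries. The median was -0.16 for Müller glia, -0.25 for vessel and mural cells, -0.05 for cones, 0.08 for amacrine and horizontal cells and 0.04 for mitochondrially encoded subunits, beside 0.01 over all genes. Rods stood at -0.54, the lowest of the 32 lists with at least 5 tested genes in each comparison, and interferon and MHC class I genes at 0.27, the highest. Of the 16 rod markers 1 had an unadjusted p under 0.05 in the lower direction, and 1 of 14 interferon and MHC class I genes in the higher direction. With limma no list of the last 3 libraries held a member past the threshold, and no median lay more than 0.55 from 0. With edgeR the rod median was -0.71.

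**Figure D3:**
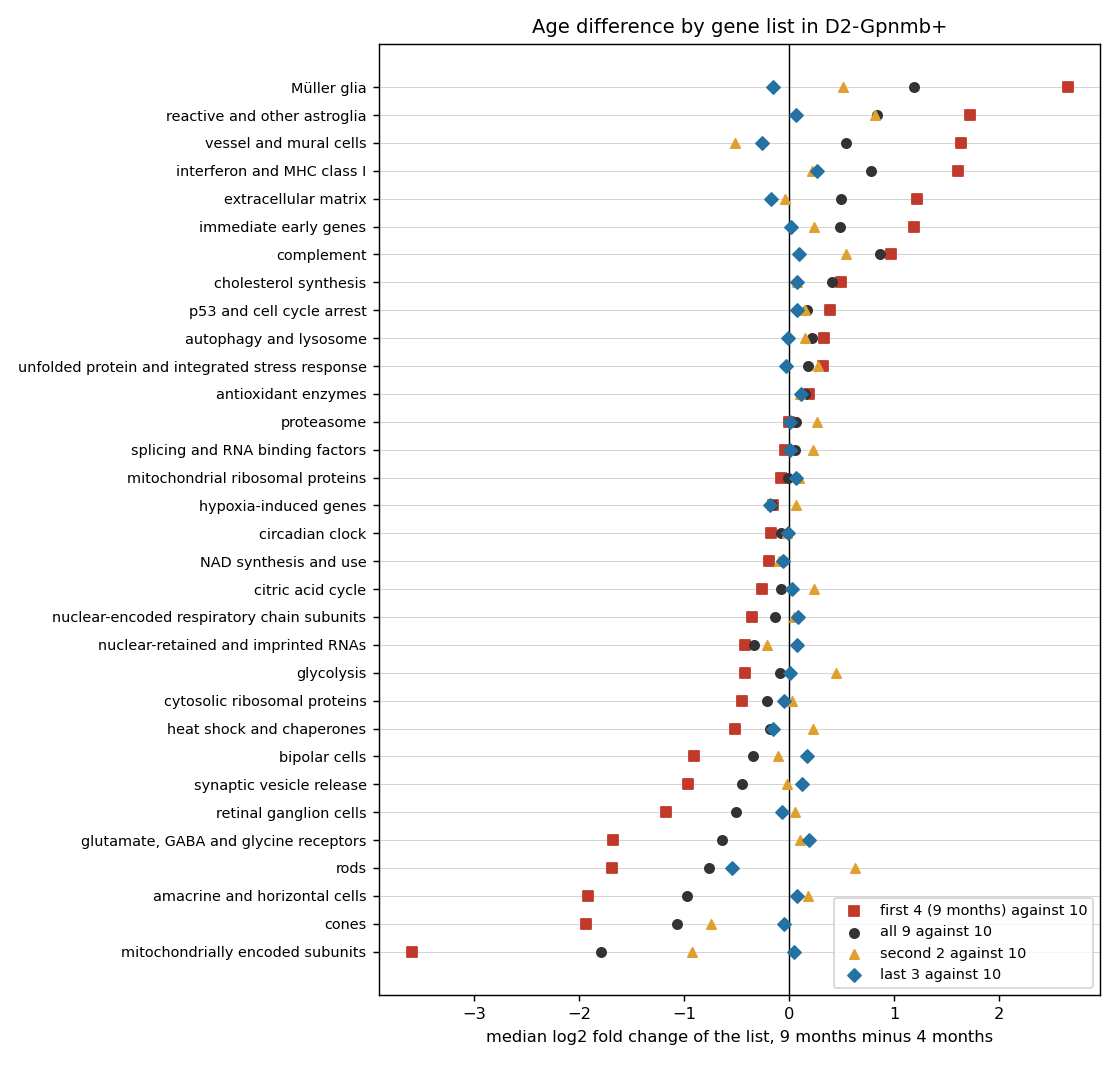
Median log2 fold change, 9 months minus 4 months, of 32 gene lists in 4 comparisons with the same 10 libraries of 4 months. The medians run from -3.59 to 2.65 for the first 4 libraries, from -1.79 to 1.19 for all 9, from -0.92 to 0.82 for the second 2 and from -0.54 to 0.27 for the last 3.

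The 6 other libraries of 9 months were then set against the last 3, which have the same strain, age and treatment. Of 13654 genes 1 passed (0.00732%), and 3314 (24.3%) had an unadjusted p under 0.05. That gene was 2610100L16Rik, an unnamed transcript, with -1.90 ± 0.24 (SE) and an adjusted p of 0.046 (limma). It was 52.3 to 76.5 in the first 4, 95.9 and 104.4 in the second 2, 255.9 to 344.9 in the last 3 and 194.7 to 301.3 at 4 months. The first 6 libraries thus lay below both the last 3 and the 4-month libraries. Without library 8 or without library 9 the number of genes past the threshold was 2160 or 2139, and it was 0 without any other single library. edgeR called none.

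The difference between sets was examined by taking the first 4 libraries alone against the 10 of 4 months, a comparison chosen after the data were seen. Here 7331 of 13691 genes passed (53.5%), 3753 higher (27.4%) and 3578 lower (26.1%). On CPM of the library total, which moved the median of all genes by 0.547, 6529 were higher and 1119 lower. Age and the stretch of columns cannot be told apart in this comparison, because no 4-month library stands in the first stretch. The 9-month DBA/2J libraries of this stretch (1 to 6) were set beside those of the last (26 to 28). Mitochondrially encoded mRNA was 2.04 to 3.39% against 5.09 to 6.76% of reads. Müller glia medians were 173 to 367 against 15.3 to 49.2, and those of vessel and mural cells 9.83 to 39.7 against 2.74 to 6.02. Amacrine and horizontal cell medians were 0.174 to 2.37 against 14.8 to 15.5. Rod medians were higher, at 199 to 311 against 148 to 159. List medians named in the next 5 paragraphs had the same direction on both scales, with the following exceptions. These were the medians of heat shock and chaperone genes and of the nuclear-encoded subunits of the respiratory chain. Counts of list members past the threshold in those paragraphs hold for the deposited scale only.

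Glial and vessel genes were higher in the first 4 libraries. All 13 Müller glia markers passed in the higher direction, with a median of 2.65 beside -0.01 over all genes. Glul, the glutamine synthetase that clears glutamate, was 6617, 8024, 5554 and 7622, against 826 to 1575 at 4 months and 723, 1303 and 997 in the last 3. Its change was 2.65 ± 0.14 (SE) with an adjusted p of 2.98e-13 (limma), and no first-stretch value came near the range of the other sets. Rlbp1, which carries visual retinoids in Müller glia, rose by 2.87 ± 0.19 (SE), and Aqp4, their water channel, by 1.92 ± 0.18 (SE). Vim, an intermediate filament, rose by 2.35 and Apoe, a lipid carrier, by 3.18. All 12 vessel and mural cell markers passed in the higher direction (median 1.64), where 27.4% of all genes did. Beta-s, a haemoglobin chain of red blood cells, was 389.8, 201.9, 56.9 and 188.3, against 0 to 11.4 at 4 months, 0 and 0 in the second 2 and 0.136 to 7.07 in the last 3. The part of blood, vessel and glial RNA in the other differences of these libraries was not tested.

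Other genes with large rises in the first 4 libraries were of several kinds. Lama5, a laminin chain, was 71.3 to 114.7 against 1.504 to 6.72 at 4 months and 3.07 to 5.83 in the last 3. Col18a1, a basement membrane collagen, was 51.5 to 76.3 against 1.51 to 7.06. The groups of both genes were far apart, with changes of 4.12 ± 0.24 (SE) and 3.81 ± 0.26 (SE). Lfng, which modifies Notch receptors, rose by 3.85 and Cyr61, a matrix-associated protein, by 3.74. Chi3l1, a secreted protein of reactive astrocytes, rose by 3.75, and Begain, Chadl, Cdc42ep1 and Paqr6 by 3.95, 4.05, 3.86 and 3.85. Of 19 tested extracellular matrix genes 12 passed higher and 2 lower, where 27.4% and 26.1% of all genes did.

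Immediate early, interferon and MHC class I genes were higher in the same 4 libraries. Of 16 tested immediate early genes, which respond within minutes to activity or handling, 11 passed higher and 1 lower (median 1.19). The shares over all genes, for this and the next lists, were 27.4% higher and 26.1% lower. Fosb was 41.3, 59.1, 23.9 and 10.3, against 0.987 to 3.02 at 4 months and 1.55 to 2.71 in the last 3. Fos was 64.5, 123.7, 36.0 and 33.0, against 5.35 to 16.2 and 9.36 to 18.7. Neither gene overlapped between the first 4 and the 4-month libraries, and their changes were 3.44 ± 0.32 (SE) and 2.35 ± 0.29 (SE). Egr1 rose by 2.36 and Junb by 1.79. Of 15 tested interferon and MHC class I genes 13 passed higher and none lower (median 1.61), among them B2m (1.73) and H2-K1 (1.61), which form the MHC class I complex. Of 19 heat shock and chaperone genes, 4 passed higher and 10 lower, with a median of -0.51 that was 0.11 on CPM of the library total. The complement gene C4b was 20.5 to 34.5 against 0.646 to 5.09 at 4 months and 1.55 to 2.94 in the last 3. Gfap, the intermediate filament of reactive glia and a protein the sort selected against, was 5.81 to 10.3 against 0.215 to 2.44.

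Markers of amacrine and horizontal cells, cones, rods and bipolar cells were lower in the first 4 libraries. Of 12 tested amacrine and horizontal cell markers 10 passed lower and 1 higher (median -1.92). Gad2, an enzyme that makes GABA, was 1.56, 1.09, 2.46 and 3.33, against 27.1 to 143.7 at 4 months, 359.0 and 59.0 in the second 2 and 70.1 to 88.0 in the last 3. Tfap2b, a transcription factor of amacrine cells, was 0.394 to 4.36 against 49.2 to 137.2. These 2 genes changed by -4.49 ± 0.35 (SE) and -4.63 ± 0.34 (SE), and no 4-month value overlapped. All 10 cone markers passed lower (median -1.93), as did 15 of 16 rod markers (-1.68) and 12 of 14 bipolar cell markers (-0.91). The short-wave cone opsin Opn1sw fell by 2.76 and the middle-wave opsin Opn1mw by 1.93. Of 13 tested ganglion cell markers 7 passed lower and 3 higher (median -1.17). Of all genes 26.1% passed lower and 27.4% higher. Thy1, the surface marker of the sort, rose by 1.72, with 41.2 to 81.0 against at most 28.4 at 4 months.

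Synapse genes followed the neuronal markers. Of 23 receptors for glutamate, GABA and glycine 20 passed lower and 1 higher (median -1.68), and of 22 synaptic vesicle release genes 19 passed lower and 3 higher (median -0.97). Vsnl1, a neuronal calcium sensor, fell by 4.02, and the potassium channel Kcna1 by 3.79. Slc8a1, the sodium-calcium exchanger, fell by 3.82 and Slitrk6, a synaptic adhesion protein, by 4.26. All 13 mitochondrially encoded subunits passed lower, with a median of -3.59. For mt-Nd2, a subunit of complex I, the values were 67.1, 85.8, 91.8 and 148.4, against 798.8 to 5192 at 4 months and 792.9 and 765.7 in the second 2. The nuclear-encoded subunits of the respiratory chain had 5 of 78 members higher and 32 lower, where 27.4% and 26.1% of all genes were. Their median of -0.36 was 0.23 on CPM of the library total. Genes of the mitochondrial chromosome thus differed by more on the log2 scale than their nuclear partners.

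The second 2 libraries, taken alone against 4 months after the data were seen, had 29 of 13993 genes past the threshold (0.207%), 10 higher (0.0715%) and 19 lower (0.136%). At an unadjusted p under 0.05 there were 1513 (10.8%), of which 716 were higher (5.12%). On CPM of the library total 2 genes passed, both higher, so that Npc1 and the genes named below as lower did not pass on that scale, while Ctss did. Npc1, which exports cholesterol from lysosomes, was 160.7 in both, against 73.2 to 93.8 at 4 months, 120.0 to 148.7 in the first 4 and 64.9 to 97.4 in the last 3. For this gene the first 6 libraries lay above all 4-month libraries, and the last 3 overlapped with these. Ctss, a protease of microglia, was 3.90 and 4.43 against 0 to 0.898, with 2.06 ± 0.32 (SE) and an adjusted p of 0.00624 (limma). Prdm8, a transcription factor of bipolar and other neurons, fell by 1.16 and Opn1mw by 0.97. The gastrin receptor gene Cckbr fell by 1.53 and the transcription factor Sall3 by 1.35. Of 10 cone markers 1 passed lower, and of 14 microglia and macrophage markers 5 were tested and 1 passed higher. Adcy1 changed by -0.74 ± 0.15 (SE), with an adjusted p of 0.0334 (limma). Its values lay below the 4-month range in all 3 sets, as did those of Pcdhb9.

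Promoters are shown for Adcy1, 1 of 3 genes whose values did not overlap between the ages, and for Fosb and Fos, as 2 immediate early genes that rose together in the first 4 libraries. Cyclic AMP, the product of the Adcy1 enzyme, acts on transcription through the cAMP response element, whose core half-site is TGACG. Each sequence runs 5′ to 3′ on the gene's strand, from 250 bases before to 50 bases after the RefSeq start (GRCm38.p6). Capitals mark TGACG on either strand.
Adcy1: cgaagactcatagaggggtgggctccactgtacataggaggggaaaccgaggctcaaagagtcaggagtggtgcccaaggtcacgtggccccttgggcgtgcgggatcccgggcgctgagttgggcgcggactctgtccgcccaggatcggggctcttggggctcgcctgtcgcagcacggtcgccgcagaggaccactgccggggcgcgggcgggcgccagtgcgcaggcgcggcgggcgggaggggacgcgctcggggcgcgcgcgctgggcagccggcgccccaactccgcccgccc
Fosb: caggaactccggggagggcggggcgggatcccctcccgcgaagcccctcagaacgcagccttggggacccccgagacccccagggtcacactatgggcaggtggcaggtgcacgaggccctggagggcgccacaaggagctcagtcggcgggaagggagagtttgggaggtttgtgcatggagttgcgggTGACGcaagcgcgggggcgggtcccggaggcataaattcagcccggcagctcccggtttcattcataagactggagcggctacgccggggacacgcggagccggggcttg
Fos: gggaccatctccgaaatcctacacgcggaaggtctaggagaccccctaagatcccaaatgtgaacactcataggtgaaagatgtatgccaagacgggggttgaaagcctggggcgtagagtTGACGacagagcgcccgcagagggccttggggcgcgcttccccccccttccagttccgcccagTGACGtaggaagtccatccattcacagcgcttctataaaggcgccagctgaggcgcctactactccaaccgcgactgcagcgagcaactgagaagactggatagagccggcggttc
The Adcy1 window (chr11:7063183-7063482, plus strand) held 0 matches, the Fosb window (chr7:19309996-19310295, minus strand) 1 and the Fos window (chr12:85473640-85473939, plus strand) 2. TGACG occurred on either strand in 20.8% of 32851 promoters of this length, and in 12 of the 16 immediate early genes with an entry. The full palindrome TGACGTCA, which contains TGACG, occurred in 1.79% of all promoters and in 2 of those 16. The 16 genes tested for expression are a different set, as Egr4 has a promoter entry and was not measured. A match is a description of letters, and binding was not measured.

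Whether the age difference was particular to D2-Gpnmb+ mice was tested as the change in DBA/2J minus the change in D2-Gpnmb+. Over all 54 libraries on water 53 of 14150 genes passed (0.375%), 18 with a higher (0.127%) and 35 with a lower (0.247%) change in DBA/2J. Most of the 25 DBA/2J libraries of 9 months stand in the second stretch, which holds 2 of the 9 D2-Gpnmb+ ones. Strain and stretch were thus not balanced in this test. Gpnmb differed by 2.31 ± 0.39 (SE), with an adjusted p of 0.00362 (limma). In DBA/2J it was 3.69 to 14.5 at 4 months and 8.39 to 78.3 at 9 months, whereas in D2-Gpnmb+ it did not pass in either direction. Pax6, a transcription factor of amacrine cells, differed by -1.65 ± 0.35 (SE). It was 44.6 to 84.1 in D2-Gpnmb+ at 4 months and 46.2 to 137.9 at 9 months, and 50.6 to 218.3 and 14.04 to 92.1 in DBA/2J. Of 79 cytosolic ribosomal protein genes 7 passed in the higher direction, including Rps21 (1.58), Rpl32 (1.41) and Rps28 (1.27). Rpl32 and Rps28 did not pass with the stretch of columns as a covariate, whereas Rps21, Pax6 and Gpnmb did. Single ribosomal protein genes share reads with near-identical copies and are uncertain. With the stretch of columns as a covariate 12 genes passed, and on CPM of the library total, which moved the median of all genes by -0.36, 215 passed with 10 higher and 205 lower.

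The same test within the last stretch of columns used 3 libraries of each strain at 9 months and all 4-month libraries. It called 11 of 14219 genes (0.0774%), all with a higher change in DBA/2J. Stat3, the transcription factor of the acute phase response, was 41.6, 45.6 and 49.0 in the last 3 D2-Gpnmb+ libraries and 26.5 to 58.5 at 4 months. In DBA/2J it was 222.6, 89.1 and 163.3 at 9 months and 36.9 to 45.4 at 4 months. In this stretch the D2-Gpnmb+ ages overlapped and the DBA/2J ages did not. The difference was 1.85 ± 0.26 (SE) with an adjusted p of 0.000811 (limma). In the first 4 D2-Gpnmb+ libraries, outside this stretch, Stat3 was 73.9 to 114.1, above all 4-month values of the strain. In the second 2 it was 62.2 and 55.7. Serpina3n, a protease inhibitor of reactive astrocytes, was 1.21, 1.22 and 0.256 in D2-Gpnmb+ and 235.4, 8.76 and 29.97 in DBA/2J, a difference of 4.20 ± 0.73 (SE). It was 2.82 to 17.5 in the first 4 and second 2 D2-Gpnmb+ libraries, and 0.668 to 3.98 in those of 4 months. The protease inhibitor A2m differed by 3.18, the axon guidance gene Slit3 by 3.16, the homeobox gene Dlx3 by 3.63 and Prph, an intermediate filament of neurons, by 2.88. A2m did not pass without DBA/2J library 26 (adjusted p = 0.147) or 28 (0.0517) or without D2-Gpnmb+ library 13 (0.129) or 14 (0.168) with limma. Slit3 did not pass without DBA/2J library 26 (0.127) or D2-Gpnmb+ library 15 (0.0504), Prph not without D2-Gpnmb+ library 13 (0.108) or 14 (0.0511), and Serpina3n not without D2-Gpnmb+ library 15 (0.0678). With edgeR, Dlx3 and Prph had adjusted p of 0.364 and 0.681. In each of these 4 genes, A2m, Slit3, Dlx3 and Prph, the lowest of the 3 DBA/2J libraries lay above every D2-Gpnmb+ library of that stretch. The number called ran from 4 to 116 when 1 of the 6 libraries of 9 months was left out, with 116 without DBA/2J library 27, 7 without library 28 and 4 or 5 without any one of the other 4. Adcy1 differed by 0.54 ± 0.22 (SE) here, with an adjusted p of 0.51 (limma), so its age change was not shown to differ between strains.

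**Figure D4:**
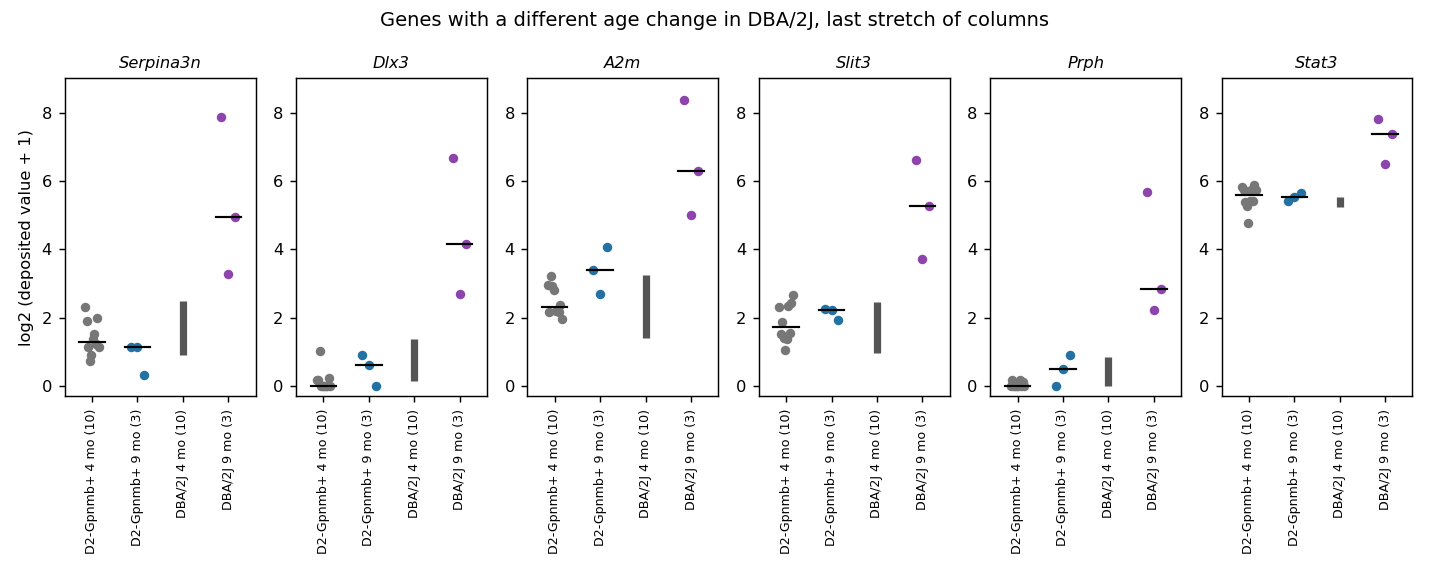
Values on the log2(deposited value + 1) scale of 6 genes in the last stretch of columns, for D2-Gpnmb+ at 4 and 9 months and DBA/2J at 9 months, 1 point per library with a bar at the median. The thick line gives the lowest to highest of the 10 DBA/2J libraries of 4 months. The 3 DBA/2J libraries of 9 months sit above all other points of their panel.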

How the data were processed

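RNA sequencing libraries were made from sorted retinal cells. The submitters' processing notes name TopHat2 2.0.7, Bowtie2 2.0.6, HTSeq and the build mm10. The deposited values are a signal per gene, made by the authors from read counts divided by a library size that the sources used here do not define. Divided by the worth of 1 read, 100% of values came out whole (tolerance 0.05) in every library, which recovered the reads. TMM scaling of them gave back the deposited scale. Of 15171 genes, 22 with names turned into dates were left out. Columns could be matched to groups but not to single samples.

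Log2 of the value plus 1 was fitted with limma 3.58.1 in R 4.3.3 (trended, robust), with Benjamini-Hochberg adjustment over all genes and a threshold of 0.05, for genes whose value reached 1 in no fewer libraries than the smaller group holds. A fold change on this scale understates changes of low genes. edgeR 4.0.16 and DESeq2 1.42.0 on recovered reads were alternatives. The scripts were checked on simulated data. Library measures were compared by exact permutation tests. Exon lengths and positions came from GENCODE vM21.

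Named genes were Gpnmb, Xist, the largest changes past the threshold with a mean of at least 5, and leading list members, and 32 more were named after their values were seen. The members and lists were chosen with earlier results of these data known.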

Additional observations from a re-analysis of the deposited data

Results flagged for a closer look

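In 3 of 100 groups examined, 1 library stood apart from the rest of its group by its gap to the nearest value, where chance gives about 5%. These were C4b at 5.09 in library 1 of 4 months, Gpnmb at 11.9 in library 1 of 9 months and Xist at 7.93 in library 8 of 9 months.

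The age change differed between strains, by the test of the difference itself, for 10 named genes over all water libraries. As DBA/2J minus D2-Gpnmb+ on the log2 scale the difference was 2.31 for Gpnmb, 1.57 for Rps21, 1.52 for Sox30, 1.41 for Rpl32 and 1.27 for Rps28. It was -1.77 for Lrrn3, -1.65 for Pax6, -1.64 for Kcna2, -1.58 for Rbfox2 and -1.50 for Rapgefl1. Gpnmb, Rps21 and Pax6 passed under all 5 alternatives, and the other 7 lost the call under at least 1, of which 6 did so with the stretch of columns as a covariate. In the last stretch of columns it was 4.20 for Serpina3n, 3.63 for Dlx3, 3.18 for A2m, 3.16 for Slit3 and 2.88 for Prph, and each of these 5 lost its call under at least 1 alternative.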

How the results depend on the processing

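No single gene recomputed under the alternatives changed its direction. Only some lists were recomputed under every alternative. Of their medians over 9 libraries, those of vessel and mural cells (-0.34), amacrine and horizontal cells (0.12) and bipolar cells (0.03) crossed 0 without the first 4. So did those of transmitter receptors (0.19), synaptic vesicle release (0.04) and extracellular matrix (-0.11). Among the same lists, the median of bipolar cells (0.01) crossed 0 on CPM of the library total. On CPM, 11 of 32 list medians over 9 libraries in all changed sign, where the median of all genes moved by 0.312. The number of genes past the threshold for age over 9 libraries, 3 with limma, was 0 on CPM of the library total, 1495 with edgeR, 2114 with DESeq2, 1054 with all 54 water libraries in 1 fit, 1 without the first 4 libraries, 7331 with only the first 4 and 29 with only the second 2. It ran from 0 to 2069 when 1 library was left out. For the last 3 libraries it was 0, and 6 with DESeq2. For 6 against 3 libraries at 9 months it was 1, and 0 with no filter, on CPM of the library total and with edgeR, with a range of 0 to 2160 when 1 library was left out. The difference between strains had 53 genes over all water libraries, 215 on CPM of the library total and 12 with the stretch as a covariate. In the last stretch it had 11, and 6 on CPM of the library total, with a range of 4 to 116 when 1 library of 9 months was left out. The second 2 libraries had 29, and 2 on CPM of the library total. Except where a scale or a number of libraries differs by construction, the cause was not tested. Of 499 recomputed values of single genes and list medians, 415 kept their call or, for medians, moved by less than the spread between libraries. Among the 415 are genes that passed neither in the main fit nor in the alternative, and medians that crossed 0 within that spread. Over 9 libraries, Adcy1 lost its call in 15 of 31 alternatives, 2810047C21Rik1 in 16 of 31 and Gm5136 in 17 of 30. The first 4 libraries had between 6624 and 6998 genes past the threshold when 1 of them was left out.

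No paired analysis was possible because the sample numbers in the labels are not shared between the groups. With 7062913 to 14961078 reads per library, low genes such as Gm5136, at 0 to 9.28, are limited by depth. The 3-library comparison had a median interval half-width of 0.489 on the log2 scale.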

Other observations

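Several gene groups had medians near 0 between 4 and 9 months in D2-Gpnmb+ libraries. The 18 circadian clock genes had a median log2 fold change of -0.07 over 9 libraries and -0.01 over the last 3. The 45 proteasome genes stood at 0.07 and 0.01, and the 76 mitochondrial ribosomal protein genes at -0.01 and 0.07. The 13 tested genes of NAD synthesis and use, a pathway the wider series addresses with nicotinamide, had a median of -0.05 over 9 libraries, and the 14 tested with the last 3 had -0.06. On CPM of the library total the medians of the clock, mitochondrial ribosomal and NAD genes over 9 libraries were 0.28, 0.28 and 0.19, beside 0.31 over all genes. No member of these lists passed the limma test in either comparison.

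For glycolysis genes the sets were not tested against each other. In the second 2 libraries 12 of 18 had an unadjusted p under 0.05 in the higher direction and none passed after adjustment, with a median of 0.45, where 5.12% of all genes had such a p. In the first 4 libraries 11 of 18 passed lower and 3 higher, where 26.1% and 27.4% of all genes did, with a median of -0.42 that was 0.20 on CPM of the library total. The last 3 libraries stood at 0.01.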
